A study of Mus musculus with 9 samples.

Results

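Nuclei that carried transcripts of the thick ascending limb of the loop of Henle together with injury transcripts were chosen by their raw counts of 6 genes in kidneys after ischemia-reperfusion injury (IRI). A nucleus was a member when Slc12a1 and Umod summed to 3 or more unique molecular identifiers (UMIs, counted RNA molecules) and Havcr1, Vcam1, Sorcs1 and Dock10 summed to 2 or more. The rule found 318 of the 14622 IRI nuclei, and the series held 27738 nuclei in all. They are called double-positive nuclei here, because the label of injured thick ascending limb was met only in part: besides limb markers they carried the proximal tubule markers described below. The 465 nuclei that passed the first gate alone are called limb-only, and the 10227 that passed the second gate alone are called injury-only. The levels of the 6 gate genes, and every difference between these 3 sets, follow in part from the gates and are given as description.

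The IRI nuclei came from 5 male Krt20T2A-CE; INTACTnuGFP/+ mice that received tamoxifen at 0.05 mg/g and an 18 min clamp of both renal pedicles. Kidneys were taken at day 7 (2 mice) or day 28 (3 mice), so the GFP that marked nuclei for sorting depended on Cre driven from the Krt20 locus. The control nuclei came from 4 male Six2TGC; Rosa26rtTA; pTRE-H2BeGFP mice on doxycycline food at 625 mg/kg, 1 without surgery and 3 sham-operated, in which GFP labels derivatives of Six2-expressing nephron progenitors. The mice were 11 to 19 weeks old. Strain, reporter, inducer and surgery all differed between control and IRI mice and cannot be told apart, so control values are described without a test.

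The thick ascending limb takes up sodium, potassium and chloride through the cotransporter encoded by Slc12a1 and secretes uromodulin, the product of Umod, the most abundant protein of normal urine. It lies beside proximal straight tubules in the outer medulla, the kidney zone most exposed to low oxygen, where proximal cells are the better known site of ischemic damage. Havcr1 (KIM-1) is a surface receptor raised in injured proximal tubule, and Vcam1 is an adhesion molecule of proximal cells that have not repaired. Sorcs1 encodes a sorting receptor and Dock10 a guanine nucleotide exchange factor. A barcode that held 2 nuclei and a barcode with 1 injured limb nucleus could both pass both gates. The labels state that doublets were gated out by scatter at the sorter.

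The IRI libraries held 1397 to 3928 nuclei and 2409411 to 14641038 UMIs, and the median nucleus had 1185 to 4174 UMIs. Day 28 mouse 1 was the shallowest, and all of its barcodes began like those of the controls, against 11.7 to 14.0% in the other IRI libraries. Both v2 and v3 kits were used, and the labels do not tie a kit to a library. Of 27606 barcodes, 132 occurred in more than 1 library, 13 of them in a pair of IRI libraries, and 1 double-positive nucleus shared its barcode with another library.

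The limb gate genes were present in the double-positive nuclei at a lower level than in limb-only nuclei. Levels are given as CPM, a gene's UMI count scaled to 1e6 UMIs over the summed nuclei of a set in 1 mouse. In the order day 7 mice 1 and 2 and day 28 mice 1, 2 and 3, used throughout, Slc12a1 stood at 3925, 3575, 5942, 4809 and 5504 CPM in double-positive nuclei. In limb-only nuclei it stood at 9255, 7873, 15633, 14439 and 14261 CPM. The ranges did not overlap, and every double-positive value was lower than its own mouse's limb-only value. Umod stood at 449, 356, 610, 658 and 340 CPM, against 1360, 906, 1875, 1633 and 969 CPM in limb-only nuclei.

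Among the injury gate genes, Havcr1 differed most between times. It stood at 821, 718, 102, 356 and 167 CPM in double-positive nuclei and at 1172, 1013, 531, 364 and 244 CPM in injury-only nuclei. A Havcr1 UMI was found in 86.0, 85.3, 26.1, 48.9 and 30.8% of the double-positive nuclei, so both day 7 mice were above all day 28 mice. Vcam1 stood at 253, 223, 726, 256 and 466 CPM, with day 28 mouse 1 highest. Sorcs1 stood at 502, 701, 1395, 892 and 623 CPM, and Dock10 ranged only from 867 to 1020 CPM. All 4 injury genes were detected in 78 of the 318 nuclei, 3 of them in 96, 2 in 107 and 1 in 37.

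Some values just inside the gates were near those just outside, and others were not. The 99 limb nuclei with an injury sum of 1, just outside the rule, had a median of 1830 UMIs, and the 43 with a sum of 2, just inside, had 2553. The 275 with 3 or more had 5341. A list of 20 injured proximal tubule genes, none used by the rule, was at 2824, 3252 and 6092 per 1e6 UMIs in these 3 steps. On the other gate, 65 injury nuclei had a limb sum of 2 and 26 had a sum of 3. Limb identity, a list of 15 genes without Slc12a1 and Umod, was at 641 and 1006 per 1e6 there, against 2563 in the 292 with a sum of 4 or more. Across the injury gate, limb identity stood at 5988, 3118 and 2408 per 1e6 for injury sums of 1, 2 and 3 or more.

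Double-positive nuclei made up a larger part of the limb gate at day 7 than at day 28. Of the nuclei that passed the first gate, 129 of 210, 95 of 146, 23 of 154, 45 of 188 and 26 of 85 were double-positive. These shares were 61.4% (95% Wilson interval 54.7 to 67.8), 65.1% (57.0 to 72.3), 14.9% (10.2 to 21.4), 23.9% (18.4 to 30.5) and 30.6% (21.8 to 41.0). Intervals cover counting error only. The mean was 63.2 ± 2.57% (SD, n = 2) at day 7 and 23.2 ± 7.86% (SD, n = 3) at day 28. The groups did not overlap, and the difference was -40.1 percentage points. The two-sided exact permutation test gave p = 0.1, the smallest that its 10 splits allow, so this design cannot reach 0.05.

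The second gate favours deep nuclei, so the shares were also taken after each nucleus was thinned to 1000 UMIs. On thinned counts they were 40.6, 36.3, 20.8, 10.8 and 10.8%, or 38.4 ± 3.08% (SD, n = 2) and 14.1 ± 5.73% (SD, n = 3). The times still did not overlap (exact permutation p = 0.1). Among the IRI nuclei outside the first gate, 76.8, 77.4, 53.2, 77.8 and 72.6% passed the second gate on raw counts. In those nuclei day 28 mouse 2 was as high as the day 7 mice, unlike its share among limb nuclei. On thinned counts 64.0, 67.6, 54.7, 59.1 and 53.2% passed, so outside the first gate the times did not overlap either. In the controls, on raw counts, 9, 1, 2 and 1 nuclei were double-positive, or 1.84, 0.833, 1.39 and 0.654% of first-gate nuclei.

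**Figure D1:**
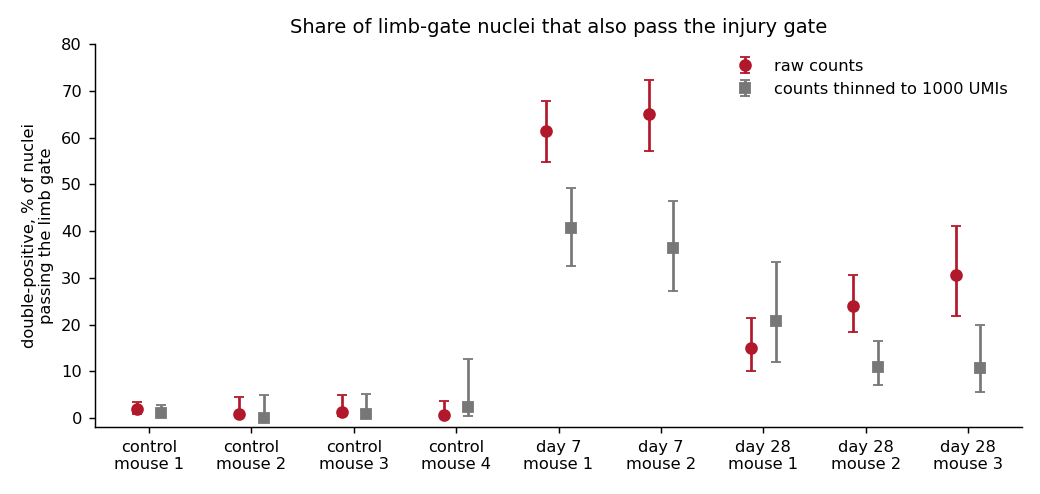
Share of first-gate nuclei that were double-positive, in percent, by mouse, on raw counts with 95% Wilson intervals and on counts thinned to 1000 UMIs. The day 7 mice (61.4 and 65.1% raw) lie above the day 28 mice (14.9 to 30.6%), and the controls lie at 0.654 to 1.84%.

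Double-positive nuclei held more RNA molecules than either single-gate set. Their median was 6105, 4412, 2399, 5341 and 7513 UMIs, against 1794, 1577, 856, 1829 and 2765 in limb-only nuclei. Injury-only nuclei stood between, at 3736, 2199.5, 1283, 2999 and 4594. Divided by the sum of the limb-only and injury-only medians of its mouse, the double-positive median was 1.10, 1.17, 1.12, 1.11 and 1.02. The ratio was thus above 1 in 5 of 5 mice, on gates that favour deep nuclei. The distributions overlapped, and 36 of the 318 double-positive nuclei lay below the limb-only median of their mouse.

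With the gates applied to thinned counts, original depth could be tested apart from the gates' preference for depth. Nuclei under 1000 UMIs leave, and nuclei that lose their injury UMIs on thinning join the limb-only set. The double-positive median was then 1.84 times the limb-only one (geometric mean of 5 mice, range 1.14 to 3.07) and higher in 5 of 5. The exact two-sided sign-flip permutation test gave p = 0.0625, the smallest that 5 mice allow. Against injury-only nuclei the ratio was 1.52 (0.98 to 1.92), higher in 4 of 5 mice (exact permutation p = 0.125). At 2000 UMIs the first ratio was 1.59 and higher in 3 of 5 mice (exact permutation p = 0.25), and at 500 UMIs it was 2.59 (exact permutation p = 0.0625).

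**Figure D2:**
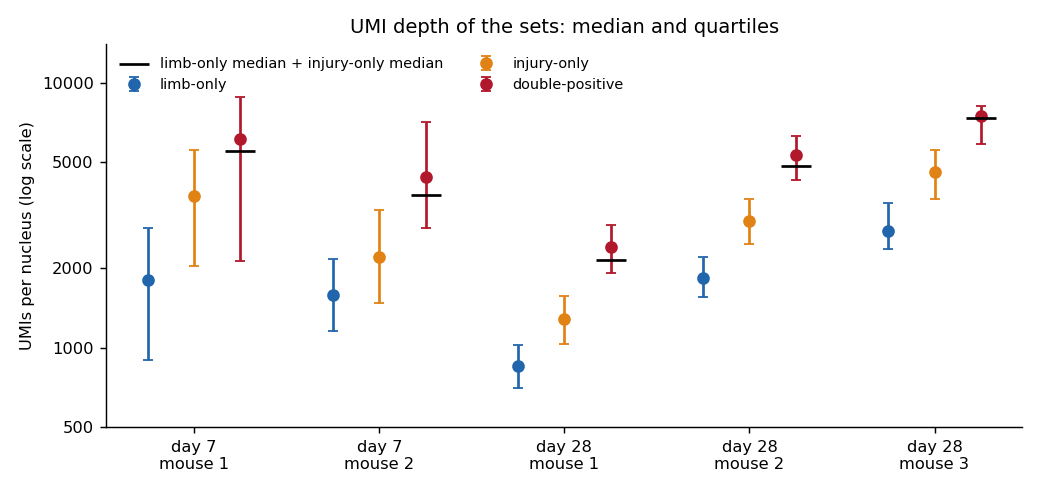
UMIs per nucleus by set and mouse. The double-positive medians (2399 to 7513 UMIs) lie above the limb-only medians (856 to 2765 UMIs) in every mouse, with overlapping distributions.

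Injury transcripts were also found in nuclei chosen by marker lists of lineages that are not tubular. Tubule nuclei and mixed barcodes were not excluded from these list nuclei. Nuclei with 3 or more UMIs of an endothelial list (Flt1, Emcn, Kdr and others) that failed the first gate numbered 178, 116, 40, 96 and 54. Their median was 3778, 2125, 736.5, 1136.5 and 1569.5 UMIs, against 3092.5, 2991.5, 916.5, 1985 and 3288 in first-gate nuclei. At 1000 thinned UMIs, 53.2, 56.8, 33.3, 23.6 and 16.3% of these endothelial-list nuclei passed the second gate. Among first-gate nuclei 43.8, 41.8, 26.7, 15.5 and 13.1% passed it. Here the first gate and the lists used all UMIs and only the second gate used thinned counts, unlike the thinned shares given earlier. The limb share was at or below the endothelial-list share in 5 of 5 mice, and was likewise at or below that of leukocyte-list and podocyte-list nuclei in 5 of 5. It was at or below the stromal-list share in 2 of 5. The thinned shares of day 28 mouse 1 rested on 15 endothelial-list, 8 leukocyte-list and 12 podocyte-list nuclei. Unthinned, the limb share was at or below the endothelial-list share in 2 of 5 mice and the stromal-list share in 4 of 5. It was at or below the leukocyte-list and podocyte-list shares in 5 of 5. On thinned counts alone, the second gate was thus passed among limb nuclei no more often than among endothelial-list nuclei. Endothelial nuclei should lack Havcr1, although Vcam1 and Dock10 are also transcribed outside the tubule.

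Havcr1, the gate gene tied most closely to proximal tubule, gave an order that depended on the lineage set beside it. On thinned counts 38.6, 32.8, 8.33, 4.81 and 1.19% of first-gate nuclei had a Havcr1 UMI, against 41.7, 49.4, 6.67, 9.09 and 2.04% of endothelial-list nuclei. The limb share was at or below the endothelial-list share in 4 of 5 mice, at or below the leukocyte-list and podocyte-list shares in 3 of 5 and at or below the stromal-list share in 2 of 5. Unthinned, the limb share was 57.6, 59.6, 5.19, 13.8 and 9.41%, against 62.9, 51.7, 10.0, 9.38 and 7.41%, with 2 of 5 mice at or below. Both kinds of nuclei thus showed Havcr1 mainly at day 7. No expression of Havcr1 by limb cells is read from these shares. Whether free RNA or shared barcodes supplied these UMIs was not tested.

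**Figure D3:**
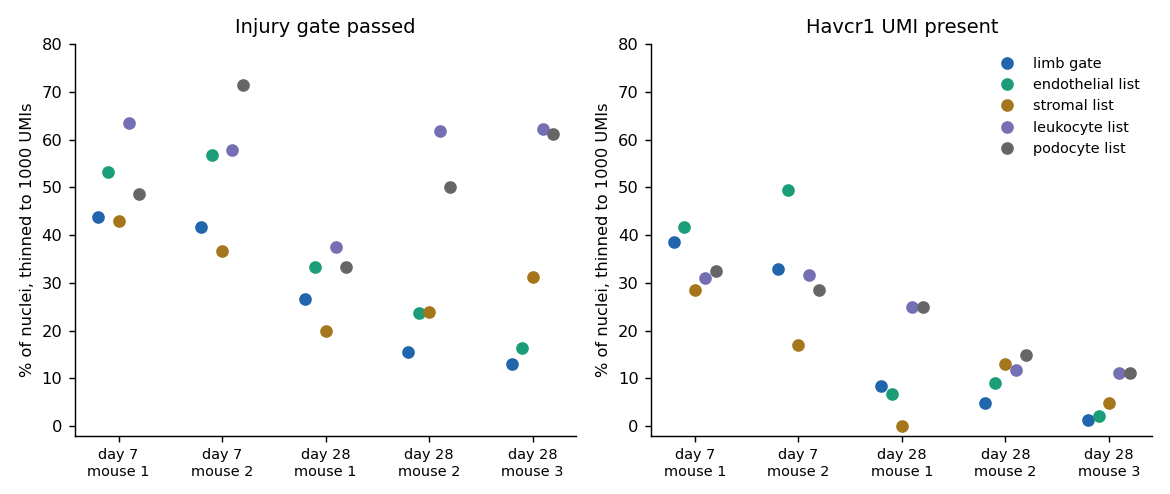
Percent of nuclei passing the second gate at 1000 thinned UMIs, by mouse. First-gate nuclei are set beside nuclei of other lineage lists that failed the first gate. First-gate nuclei (13.1 to 43.8%) lie at or below the endothelial-list nuclei (16.3 to 56.8%) in 5 of 5 mice.

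The limb identity and injured proximal tubule lists, not used by the gates, placed the double-positive nuclei between the single-gate sets in 5 of 5 mice. Limb identity genes, which include the growth factor gene Egf, the potassium channel gene Kcnj1 and the calcium-sensing receptor gene Casr, summed to 2095, 2144, 3022, 3255 and 3704 per 1e6 UMIs. In limb-only nuclei they summed to 5340, 3888, 9684, 9044 and 6201, so the double-positive level was lower in every mouse. It was 39.2, 55.1, 31.2, 36.0 and 59.7% of the limb-only level. Injury-only nuclei had 193 to 474 per 1e6.

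UMIs of proximal tubule genes were found in most of the same nuclei. A list of 24 proximal identity genes, such as Slc34a1 (phosphate uptake), Lrp2 (the endocytic receptor megalin) and Slc13a1 (sulfate uptake), summed to 4933, 6487, 8906, 4248 and 5211 per 1e6 UMIs. Limb-only nuclei had 3221, 5486, 4370, 1210 and 4083 per 1e6 and injury-only nuclei 7323, 8506, 6910, 6316 and 6759. The double-positive level was above the limb-only one in every mouse and below the injury-only one in all but day 28 mouse 1. The limb-only nuclei were uneven, with 9638 per 1e6 in the 86 that held 3 or more UMIs of the list and 434 in the other 379. At least 3 UMIs of the list were found in 291 of 318 double-positive nuclei (91.5%), 86 of 465 limb-only nuclei (18.5%) and 9457 of 10227 injury-only nuclei (92.5%). At least 3 UMIs of the limb list were found in 271 double-positive (85.2%), 392 limb-only (84.3%) and 1351 injury-only nuclei (13.2%). These counts are unthinned and rise with depth. Endothelial cells should lack these genes. Endothelial-list nuclei, which may include mixed barcodes, had 295 CPM of Slc34a1 and 375 CPM of Lrp2 over all mice. Double-positive nuclei were near these, at 298 and 397 CPM. By mouse, Slc34a1 stood at 218, 383, 785, 222 and 351 CPM in double-positive nuclei, against 297, 292, 668, 159 and 325 CPM in endothelial-list nuclei. Lrp2 stood at 368, 445, 479, 394 and 377 CPM against 406, 436, 358, 235 and 212 CPM. Both genes were thus higher in double-positive nuclei in every mouse but day 7 mouse 1, although the pooled levels were close.

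The injured proximal tubule list, with the transcription factor genes Sox9 and Runx1 and the ceruloplasmin gene Cp, summed to 6076, 6284, 4184, 5219 and 5247 per 1e6 in double-positive nuclei. Limb-only nuclei had 2690, 3274, 1983, 2147 and 1859, and the ranges did not overlap. The NF-kB and chemokine list stood at 1219 to 1585 per 1e6, and in 5 of 5 mice it lay between the limb-only level (429 to 721) and the injury-only level (1706 to 3077). The respiratory chain list took the opposite order in 5 of 5 mice, at 377 to 726 per 1e6 in double-positive, 530 to 1161 in limb-only and 306 to 548 in injury-only nuclei. With nuclei thinned to 1000 UMIs, 75.7% of double-positive, 72.6% of limb-only and 21.7% of injury-only nuclei had a UMI of both the limb and the injured proximal list.

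**Figure D4:**
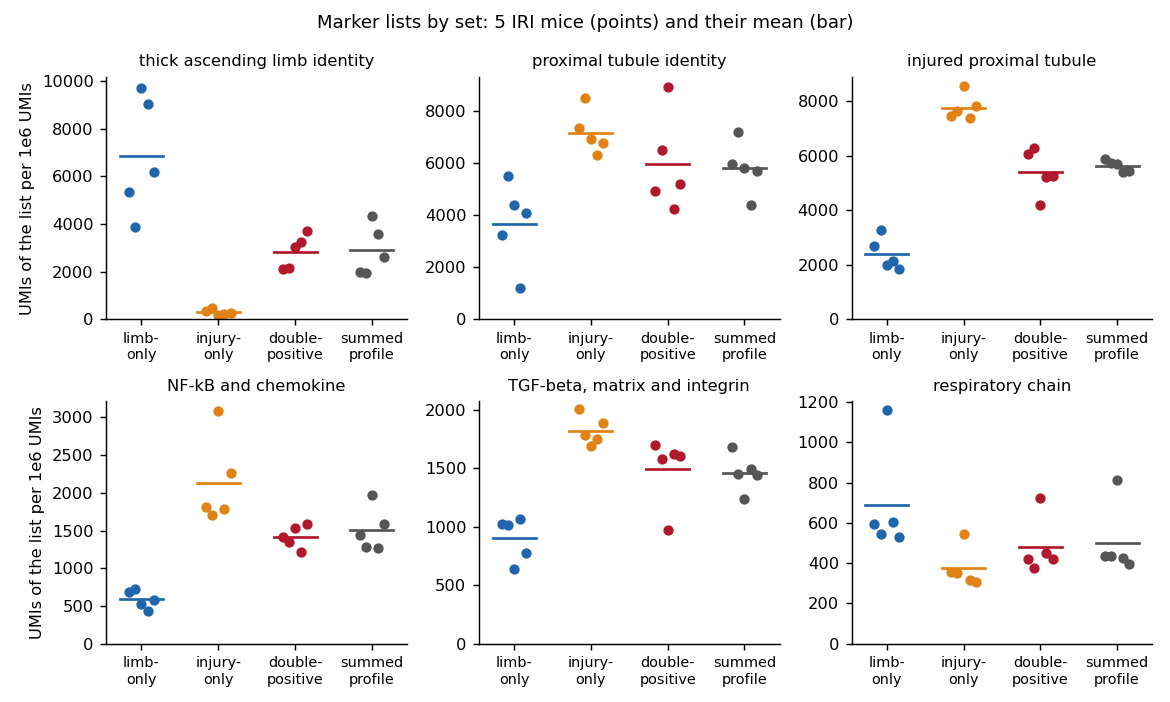
Summed UMIs of marker lists per 1e6 UMIs, by set and mouse. Double-positive nuclei lie between limb-only and injury-only nuclei in every mouse for limb identity (2095 to 3704, against 3888 to 9684 and 193 to 474) and for injured proximal tubule genes (4184 to 6284, against 1859 to 3274 and 7380 to 8549).

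Gene by gene, the double-positive nuclei had less limb RNA and more injured proximal RNA than limb-only nuclei. Of 5642 genes tested in sums per mouse, without the gate genes, 674 (11.9%) passed an adjusted p of 0.05 as higher in double-positive nuclei and 568 (10.1%) as lower, by edgeR's quasi-likelihood test with mouse as a block. The gates cut this contrast, so nothing is read from these counts or from the lists' counts below. Without mouse in the fit the calls numbered 728, and with gates on thinned counts 344.

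Of 11 limb identity genes tested, 10 passed as lower and none as higher, with a median log2 difference of -1.38 against -0.01 over all genes. Casr stood at 181, 197, 247, 222 and 251 CPM in double-positive nuclei and at 438, 497, 678, 731 and 493 CPM in limb-only nuclei. Its log2 difference was -1.38 ± 0.21 (SE, 5 mice), with no overlap. Egf, a peptide made in quantity by this segment, stood at 849, 834, 1801, 1986 and 2239 CPM against 2719, 1257, 6057, 5147 and 3421 CPM (log2 -1.27 ± 0.21). It was lower in 5 of 5 mice, although day 28 double-positive values exceeded the limb-only value of day 7 mouse 2. Of 8 genes of the sodium pump and the WNK-SPAK kinases that activate the cotransporter, 6 were lower and 2 did not pass. Ppargc1a, a regulator of mitochondrial biogenesis, was at 506 ± 83.7 against 1003 ± 243 CPM (SD, n = 5), with a log2 difference of -1.04 ± 0.15.

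On the injury side, 13 of 16 injured proximal tubule genes tested were higher and none lower, with a median log2 difference of 1.91. Cp stood at 895, 803, 508, 545 and 685 CPM in double-positive nuclei and at 163, 292, 79.3, 67.4 and 31.8 CPM in limb-only nuclei. The sets did not overlap, and the log2 difference was 2.62 ± 0.25. Cd44, the hyaluronan receptor, stood at 422, 528, 116, 155 and 199 CPM against 52.5, 39.0, 7.21, 17.7 and 0 CPM. Runx1 stood at 191 ± 64.1 against 36.8 ± 18.1 CPM (SD, n = 5). Of 12 NF-kB and chemokine genes 11 were higher, among them Tnfaip3, an inhibitor of the pathway, at 43.2 ± 10.0 against 1.77 ± 2.50 CPM. All 5 immediate early genes tested, 8 of 11 shared epithelial injury genes and 7 of 11 TGF-beta and matrix genes were higher, and 1 shared epithelial injury gene was lower. Krt20, the gene that drives the reporter's Cre, was near 0, at 15.7, 12.4, 0, 12.6 and 0 CPM.

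Proximal identity genes were mixed. Of 17 tested, 3 were higher, 2 were lower and the median log2 difference was 0.02. Slc13a1 stood at 1120, 1676, 1685, 901 and 1025 CPM in double-positive nuclei against 455, 575, 469, 124 and 281 CPM in limb-only nuclei (log2 1.81 ± 0.16). Slc4a4, the basolateral bicarbonate transporter, had a log2 difference of 1.58 ± 0.19. Slc34a1 stood at 391 ± 232, 403 ± 235 and 392 ± 85.6 CPM in the double-positive, limb-only and injury-only sets (SD, n = 5), and did not order them.

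The largest rises by the naming rule were Gm17268, AC133498.1, Gxylt2, the complement gene C3, Tgfb2, Grid1, Cd44, Ankrd6, the potassium channel gene Kcnh8 and the vitamin D binding protein gene Gc. In each of these the mean of the injury-only nuclei was higher still, for example 309 CPM in double-positive, 29.3 CPM in limb-only and 498 CPM in injury-only nuclei for Kcnh8. The largest falls included Slco4a1, Gpc5, the tight junction gene Cldn19, Tarm1, Pdzrn4, Frmpd4, Cntn5, Sv2a and Sim2. Each of these was lowest in injury-only nuclei. Sim2, for example, stood at 61.6 CPM in double-positive, 193 CPM in limb-only and 1.14 CPM in injury-only nuclei.

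Against injury-only nuclei the order turned around. Of the same 5642 genes, 521 (9.23%) passed as higher in double-positive nuclei and 307 (5.44%) as lower. The gates cut this contrast too. The 828 calls fell to 533 without day 7 mouse 1 and to 309 without mouse in the fit. Limb identity genes made up 10 of the 11 tested as higher, with a median log2 difference of 4.54, and the largest rise was Tmem207, at 100 against 0.51 CPM. The other named rises were Pcsk6, Egfl6, Casr, Sgcz, Egf, Tenm2, Enox1, Sim2 and Fa2h. Injured proximal genes were lower in 9 of 16 and NF-kB genes in 8 of 12, with medians of -0.51 and -0.50. The named falls, Cyp7b1, Arhgap15, Slc7a12, Gm26573, Gm17268, Csf1, Folh1, 5730559C18Rik, Folr2 and Mark1, had log2 differences of -1.23 to -0.93.

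The levels of the double-positive nuclei lay near the sum of the single-gate profiles. For each mouse the mean UMIs of a limb-only nucleus and of an injury-only nucleus were added, rescaled to CPM, and compared with the double-positive nuclei. Of 7088 genes tested, 0 (0%) departed from the summed profile at an adjusted p of 0.05 by limma's moderated test on log2(CPM + 10). The smallest adjusted p was 0.912, and 285 genes (4.02%) had an unadjusted p under 0.05, of which 97 were higher and 188 lower in double-positive nuclei. In every alternative setting run the count was also 0, with 149 to 1002 genes at an unadjusted p under 0.05. The median SE of a departure was 0.20 on the log2 scale, so small departures of single genes were not detectable at this depth. A larger departure that held in every mouse, that of Gpc5 below, was not called either. The count of 0 alone thus does not show that levels matched the sum. In the 2084 genes at 100 CPM or more the median size of a departure was 0.09 and the median SE 0.13.

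Several of the genes named above lay near the summed profile, while Gpc5, among the largest falls against limb-only nuclei, lay below it. Casr stood at 145, 218, 300, 279 and 198 CPM in the summed profile and departed from it by -0.02 ± 0.14 on the log2 scale (SE, 5 mice). Egf departed by 0.13 ± 0.15, Cp by -0.14 ± 0.10, Cd44 by -0.08 ± 0.15, Slc13a1 by 0.12 ± 0.08 and Ppargc1a by 0.04 ± 0.09. The 14 limb identity genes tested had departures with a median of -0.03, the 17 injured proximal genes -0.13 and the 19 proximal identity genes -0.10, against -0.03 over all genes tested. Gpc5, a glypican, had one of the smallest unadjusted p-values at -0.85 ± 0.18, lower in 5 of 5 mice, and was not called at an adjusted p of 0.91. It was singled out after its values were seen.

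Across genes within a mouse, the double-positive profile correlated more with the summed profile than with either part. Pearson's r over 7088 genes was 0.98, 0.96, 0.83, 0.95 and 0.92 with the summed profile. It was 0.93, 0.93, 0.76, 0.88 and 0.86 with injury-only nuclei and 0.87, 0.86, 0.72, 0.80 and 0.80 with limb-only nuclei. Genes are not independent replicates, and the value follows depth, being lowest in day 28 mouse 1 with 23 double-positive nuclei. When the limb weight was left free, the closest mixture held 30.5, 27.4, 34.6, 30.5 and 34.3% limb RNA, below the 33.0, 43.2, 43.6, 38.1 and 40.0% that the sets' mean UMIs give. Since the sets were cut by injury UMIs and by depth, a limb nucleus that took on injury RNA in part would also lie between them. Those cases cannot be told apart by the summed profile alone.

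**Figure D5:**
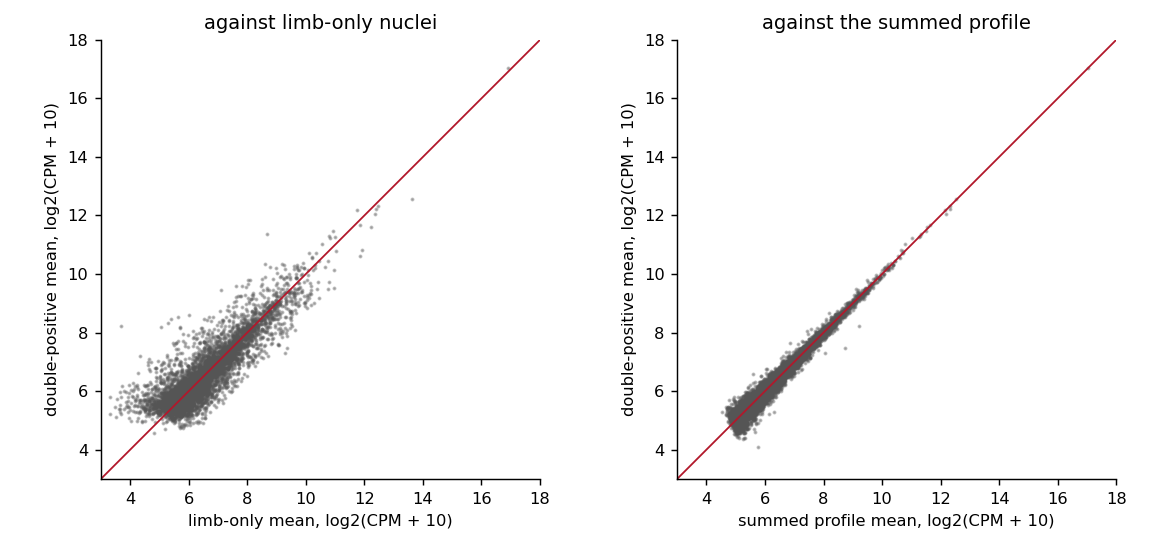
Mean level of each gene in double-positive nuclei, as log2(CPM + 10). It is set against limb-only nuclei (left) and against the summed limb-only and injury-only profile (right). The line marks equality, and single genes are not labelled. From the summed profile 0 of 7088 genes departed at an adjusted p of 0.05, a count that alone does not show a match.

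The members were not alike in depth or content. The 55 with under 2000 UMIs came from every mouse (32, 13, 6, 3 and 1) and had 3659 limb identity, 4088 proximal identity and 5831 injured proximal UMIs per 1e6. The 195 with 2000 to 8000 UMIs had 2771, 5054 and 5877, and the 68 above 8000 UMIs had 1972, 6046 and 5839. Limb and proximal content thus moved in opposite directions with depth, while the injured proximal list stayed level. The first gate is a fixed UMI sum, so a shallow nucleus needs a larger share of limb RNA to pass. The order of limb content by depth can thus follow in part from the rule. The 160 limb-only nuclei of 2000 to 8000 UMIs had 6136, 3242 and 2335 per 1e6. Their median was 2630 UMIs, against 4849 in the double-positive nuclei of that window, so depth still differed.

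A small part of the double-positive nuclei carried injury RNA with little proximal identity RNA. The 27 with under 3 proximal identity UMIs came from all 5 mice (17, 1, 2, 5 and 2) and were shallow, with a median of 1537 UMIs. Their limb identity list stood at 4106 and their injured proximal list at 5317 per 1e6. In 6 nuclei no proximal identity UMI was found, at a median of 1884.5 UMIs. These subsets were chosen after values were seen, and a low proximal count also follows from low depth.

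Between day 28 and day 7, a contrast the rule did not use, Egf rose and Cd44 fell in the double-positive nuclei, among a small share of the genes tested. Of 4988 genes tested, 80 (1.6%) were higher at day 28 and 25 (0.501%) lower, by edgeR's quasi-likelihood test at an adjusted p of 0.05. Egf rose from 849 and 834 to 1801, 1986 and 2239 CPM, a log2 change of 1.44 ± 0.21 (SE, edgeR adjusted p = 0.0042). Cd44 fell from 422 and 528 to 116, 155 and 199 CPM, a log2 change of -1.35 ± 0.24 (edgeR adjusted p = 0.0109). The times did not overlap for either gene. Cd44 also went from 645 and 656 to 315, 239 and 374 CPM in injury-only nuclei. In limb-only nuclei it went from 52.5 and 39.0 to 7.21, 17.7 and 0 CPM. In limb-only nuclei Egf stood at 2719 and 1257 CPM at day 7 and at 6057, 5147 and 3421 CPM at day 28, without overlap, and the log2 change there was of like size, 1.45 ± 0.36, but did not pass (edgeR adjusted p = 0.0934). The interaction of set and time for Egf was -0.06 ± 0.28 (edgeR adjusted p = 0.997).

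Among the fixed lists few members passed. Of 9 limb identity genes tested only Egf was higher. Of 16 injured proximal genes Styk1 (log2 -2.86 ± 0.61, edgeR adjusted p = 0.0277) and Ccbe1 (-1.70, edgeR adjusted p = 0.0446) were lower. Of 17 proximal identity genes Pck1, the gluconeogenic enzyme gene, was higher (2.32 ± 0.52, edgeR adjusted p = 0.0388). Tmem52b of the distal tubule list was higher (2.65 ± 0.48, edgeR adjusted p = 0.0134).

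The largest named falls were Hs3st5, a heparan sulfate modifying enzyme gene, and Hmga2, a chromatin architecture gene. Hs3st5 stood at 158 and 139 CPM at day 7 and at 0, 0 and 10.5 CPM at day 28 (log2 -4.95 ± 0.60, edgeR adjusted p = 0.0008). Cdh13, a cadherin gene, fell from 312 and 244 to 58.1, 16.8 and 15.7 CPM (log2 -3.45 ± 0.41, edgeR adjusted p = 0.00075). In injury-only nuclei Cdh13 also went from 509 and 366 to 39.4, 55.4 and 84.8 CPM. Hs3st5 went there from 192 and 114 to 32.9, 35.8 and 13.1 CPM. Hmga2 went there from 65.5 and 32.4 to 2.41, 9.33 and 1.75 CPM. The other named falls were Rpsa, Styk1, Gm42418, Diaph3, Gpx3, Serpina10 and Kcnq5. Gm42418, which overlaps a ribosomal RNA repeat, stood at 7756 and 10062 CPM at day 7 and at 174, 1533 and 1632 CPM at day 28, and it was lower at day 28 in limb-only and injury-only nuclei too. Its part in the other changes was not tested.

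The named rises were mostly unannotated or non-coding genes that stood at 36 CPM or less at day 7 in all 3 sets. Gm17268 stood at 25.4 and 10.3 CPM at day 7 and at 668, 331 and 398 CPM at day 28 (log2 4.63 ± 0.40, edgeR adjusted p = 0.0002). In limb-only nuclei it reached at most 7.2 CPM, and in injury-only nuclei of day 28 it stood at 4049, 392 and 601 CPM. Gm15261 stood at 4.84 and 0 CPM at day 7 and at 87.2, 134 and 94.2 CPM at day 28, and in limb-only nuclei at 0 and 0 and at 93.7, 135 and 217 CPM. AC161607.1 and Gm42439 had no UMI in the double-positive nuclei of day 7 and stood at 37 to 87 CPM at day 28. The remaining rises were Gm26699, Gm26632, Gm44686, Gm12002, Gm15563 and Lrrc4. Library chemistry and sequencing run were not tested as a part of these changes.

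The 105 calls rested on few mice. They numbered 51 without day 7 mouse 1, 60 without day 7 mouse 2 and 58 without day 28 mouse 3, and 166 without day 28 mouse 1. DESeq2 called 81 genes higher and 9 lower.

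In limb-only nuclei the same contrast called 18 genes (0.462% of 3897) higher and 8 (0.205%) lower at day 28. The named falls were Gm42418, AC135964.2, the netrin gene Ntn1, Them7, the parathyroid hormone receptor gene Pth1r, Dcdc2a, Peak1 and Tinag. Dcdc2a, on the injured proximal list, stood at 584 and 672 CPM at day 7 and at 151, 170 and 259 CPM at day 28 (log2 -1.52 ± 0.27, edgeR adjusted p = 0.0241). In double-positive nuclei it stood at 759, 772, 363, 440 and 617 CPM. The named rises included Gm15261, Gm48678, Gm31763, Lrrc4, Gm35188 and Fndc9. The calls fell to 7 without day 28 mouse 1, to 12 without day 28 mouse 2, to 16 without day 7 mouse 2 and to 17 without day 28 mouse 3, and no gene was called among nuclei of 2000 to 8000 UMIs.

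The set difference itself changed with time for 5 of 5110 genes (0.0978%), by the interaction of set and time in edgeR. Kcnip4, a potassium channel-interacting protein gene, stood at 1723, 2481, 2412, 2656 and 3741 CPM in double-positive nuclei. In limb-only nuclei it stood at 391 and 1130 CPM at day 7 and at 123, 273 and 95.3 CPM at day 28, and in injury-only nuclei at 2780 to 5080 CPM. Its set difference was 2.48 ± 0.35 log2 units larger at day 28 (edgeR adjusted p = 0.000462). AC135964.2, Them7 and the endocytic adaptor gene Dab2 had differences of 2.16, 1.49 and 1.26. For Slc8a1, a sodium-calcium exchanger gene of the connecting tubule list, the difference was -4.83. It rested on the limb-only nuclei of day 28 mouse 3, at 2796 CPM against 46 to 224 CPM in the others, and was -1.83 (edgeR adjusted p = 0.546) without that mouse and -2.59 (edgeR adjusted p = 0.959) without day 7 mouse 1. Without day 7 mouse 2 no gene was called, and without day 7 mouse 1 there was 1.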

How the data were processed

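Nuclei from 9 mice were sorted for GFP and sequenced with 10x 3' kits, per the labels. The authors deposited raw UMI counts per gene and nucleus in 1 table of 19342 genes for IRI and 1 of 17455 genes for controls. Per the submitters' processing notes, the tools were Seurat, STAR and Cell Ranger and the build was mm10, without versions; cell filters and strand handling were not stated. Doublets were gated at the sorter, per the labels, and no doublet caller was run here. Members and gene lists were chosen with earlier results of these data known, and they support nothing as independent evidence.

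UMIs were summed per mouse and set (15 sums). edgeR 4.0.16 (TMM, filterByExpr, quasi-likelihood, Benjamini-Hochberg) in R 4.3.3 tested them with mouse as a block between sets and without it between times, where replicate numbers name different mice. limma 3.58.1 tested log2(CPM + 10) against the summed profile for genes at a mean of 20 CPM or more. The 6 gate genes were not tested. Alternatives included DESeq2 1.42.0, RLE factors, no filter, other gates, nuclei of 2000 to 8000 UMIs, and each mouse left out. The tests were also run on simulated counts with a single spread for all genes, which need not match the spread of these sums. CPM values are plain UMIs per 1e6, while log2 differences are fitted values.

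Nuclei were thinned to 1000 UMIs at random without replacement, leaving out shallower ones (for list UMIs 13 double-positive, 129 limb-only and 812 injury-only). Gates on thinned counts were applied anew, except in the comparison with lineage lists, where only the second gate was thinned. Named genes were, per comparison, the 10 largest rises and falls past the threshold, the same way in every mouse (between times: not overlapping) and at 50 CPM or more in the higher set (8 each for the summed profile), plus list members; some genes that met this rule are not reported here. The mice are separate animals; p-values measure the spread between these libraries. Reads of overlapping and antisense genes may not be separable, since strand handling is not stated.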

Additional observations from a re-analysis of the deposited data

Results flagged for a closer look

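Among the 4 controls, the mouse without surgery stood apart in double-positive nuclei, which made up 0.2508% of its nuclei (9 of 3589) against 0.0393 to 0.0438% in the sham-operated mice. Its gap to the others was large for its group's range. Chance flags about 1 in 20 such groups, and 14 groups were checked. Its first gate also held the most nuclei, 489 of 3589.

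For 5 genes the difference between double-positive and limb-only nuclei differed between day 28 and day 7 by the interaction test. The difference at day 28 minus that at day 7 was 2.481 for Kcnip4, 2.161 for AC135964.2, 1.259 for Dab2, 1.487 for Them7 and -4.827 for Slc8a1 on the log2 scale. AC135964.2 stood at 438 and 292 CPM at day 7 and at 36 to 101 CPM at day 28 in limb-only nuclei, and at 262 to 745 CPM in double-positive nuclei. Them7 stood at 630 and 633 CPM and at 94 to 238 CPM in limb-only nuclei. For both, injury-only nuclei were higher than limb-only nuclei in every mouse.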

How the results depend on the processing

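The sign of the day 28 share difference held in each alternative (-24.3 to -43.8 points), and 0 genes departed from the summed profile in each; no named gene reversed. Double-positive against limb-only nuclei gave 1242 calls, and 728 with no replicate block, 344 on thinned gates, 802 with a gate of Havcr1 and Vcam1 and 653 at 2000 to 8000 UMIs (915 to 1172 with a mouse left out). Against injury-only nuclei, 828 calls became 1295 with no filter on low counts, 309 with no replicate block and 504 on thinned gates (533 to 842 with a mouse left out).

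For day 28 against day 7, the 105 double-positive calls became 337 with no filter, 52 on thinned gates, 28 with the Havcr1 and Vcam1 gate and 65 at 2000 to 8000 UMIs (51 to 166 with a mouse left out). The 26 limb-only calls became 172, 142 with a replicate block, 86 with the Havcr1 and Vcam1 gate and 0 at 2000 to 8000 UMIs, where 154 genes had an unadjusted p under 0.05 (7 to 21 with a mouse left out). The 5 interaction genes became 2 with DESeq2, 8 with no filter, 9 with stricter gates, 18 with the Havcr1 and Vcam1 gate and 0 at 2000 to 8000 UMIs, where 147 had an unadjusted p under 0.05 (0 to 7 with a mouse left out). Sets were paired by mouse. Replicate numbers name different mice across times, so pairing by number has no basis; that replicate block gave 103 double-positive calls, 75 of them shared. The causes of these shifts were not tested. The 23 to 45 double-positive nuclei of each day 28 mouse limit what could be called.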
